A study of Saccharomyces cerevisiae with 5 samples.

Results

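The SNZ, SNO and DDI genes of budding yeast, Saccharomyces cerevisiae, lie in 3 gene blocks. SNZ1 (YMR096W) and SNO1 (YMR095C) form a pair inside the right arm of chromosome XIII. SNZ2 (YNL333W), SNO2 (YNL334C) and DDI2 (YNL335W) lie near the left end of chromosome XIV, and SNZ3 (YFL059W), SNO3 (YFL060C) and DDI3 (YFL061W) near the left end of chromosome VI. The 8 genes are those of 6256 on the array that carry one of these names. They were chosen by measured values, since earlier results had shown weak Cy5 (genomic DNA) signal at several of them, so their genomic DNA values describe them and were not tested. The array design named 6 of the 8. DDI2 and DDI3 appeared in it by systematic name only and were matched through their RefSeq symbols. Sources differ on which of the pair is called DDI2 and which DDI3, so the systematic names identify them.

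Total RNA labelled with the green dye Cy3 was hybridized together with genomic DNA labelled with the red dye Cy5 on each of 5 two-colour Agilent arrays. RNA and DNA came from strain Sigma 1287b, L5366, which the paper spells Sigma1278b L5366, and the cultures grew in rich medium at 30 °C to mid-log phase. All 5 arrays form 1 group with no treatment, the dyes were not swapped, and the labels do not say whether the RNA samples came from separate cultures. The study's methods describe 3 to 4 biological replicates hybridized against reference genomic DNA, fewer than the 5 arrays, so the SD between arrays may be partly technical. Arrays 4 and 5, on 1 slide, were scanned in a second session, after arrays 1 to 3 in a first. Array 1 had a slide of its own, and arrays 2 and 3 shared one.

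Snz and Sno proteins are the 2 subunits of pyridoxal 5'-phosphate synthase, which makes the active form of vitamin B6, the cofactor of aminotransferases and many other enzymes. Sno is the glutaminase subunit that releases ammonia from glutamine, and Snz is the synthase subunit that builds the pyridoxal ring. The genes of each SNZ-SNO pair are transcribed divergently from a shared promoter region. SNZ1 and SNO1 are known for induction as cells run out of nutrients and enter stationary phase, whereas SNZ2 and SNZ3 sit beside THI12 and THI5, genes for making the pyrimidine part of thiamine, vitamin B1. DDI2 and DDI3 encode near-identical cyanamide hydratases induced by DNA alkylating agents.

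The genomic DNA channel separated the chromosome XIII pair from both subtelomeric blocks on every array. At SNZ1 and SNO1 all 35 spots of each gene (7 per array) were marked well above background in Cy5. At none of the other 6 genes did 50% or more of the spots reach that mark on any array. Among all 6256 genes on the array, 34 (0.543%) had no Cy5 signal on any array by this rule, and 6 of those 34 are the SNZ2, SNO2, DDI2, SNZ3, SNO3 and DDI3 genes. Since genomic DNA signal chose the genes, nothing is read from that share. Of the 34, the brightest were YAR075W, COI1 and YLR156W at mean Cy5 of 42.4, 44.1 and 46.8, and the dimmest genes with signal on at least 1 array were YAL066W, YDR544C and ARR2 at 20.3, 46.2 and 47.5.

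Cy5 intensity, given here as the spot median minus the local background median in scanner units, was 10435, 9002, 9176, 11318 and 9242 at SNZ1 on arrays 1 to 5, a mean of 9835 ± 1005 (SD, n = 5). At SNO1 it was 16788, 15479, 15836, 16612 and 14025, a mean of 15748 ± 1104 (SD, n = 5). Both genes lay inside the range of ordinary genes, since the median gene had a Cy5 intensity between 11396 and 13043 on the 5 arrays, and the 5th percentile was between 6251 and 7532.

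On chromosome XIV, SNZ2 had a Cy5 intensity of 15.6, 8.29, 8.58, 9.86 and 37.3 on arrays 1 to 5. Its partner SNO2 had 32.1, 17.6, 11.9, 15.3 and 35.1. DDI2 had 30.6, 20.1, 17.4, 16.9 and 14.0. The negative control spots, which are meant to bind no target, read 14.0 ± 7.70, 5.38 ± 5.18, 5.14 ± 5.86, 10.5 ± 8.83 and 12.5 ± 9.78 on the same arrays (SD over 121 to 145 spots). The 3 genes therefore read within a few SD of spots without target, with SNZ2 and SNO2 highest on array 5 and DDI2 highest on array 1.

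The chromosome VI copies read alike. SNZ3 had a Cy5 intensity of 24.1, 14.1, 10.5, 23.0 and 37.6 on arrays 1 to 5. SNO3 had 11.6, 10.8, 7.42, 16.3 and 9.75, the lowest mean of the 8 genes at 11.2 ± 3.28 (SD, n = 5). DDI3 had 35.6, 23.6, 19.9, 16.3 and 14.7. Both DDI genes were highest on array 1, while SNZ2 and SNZ3 were highest on array 5.

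**Figure D1:**
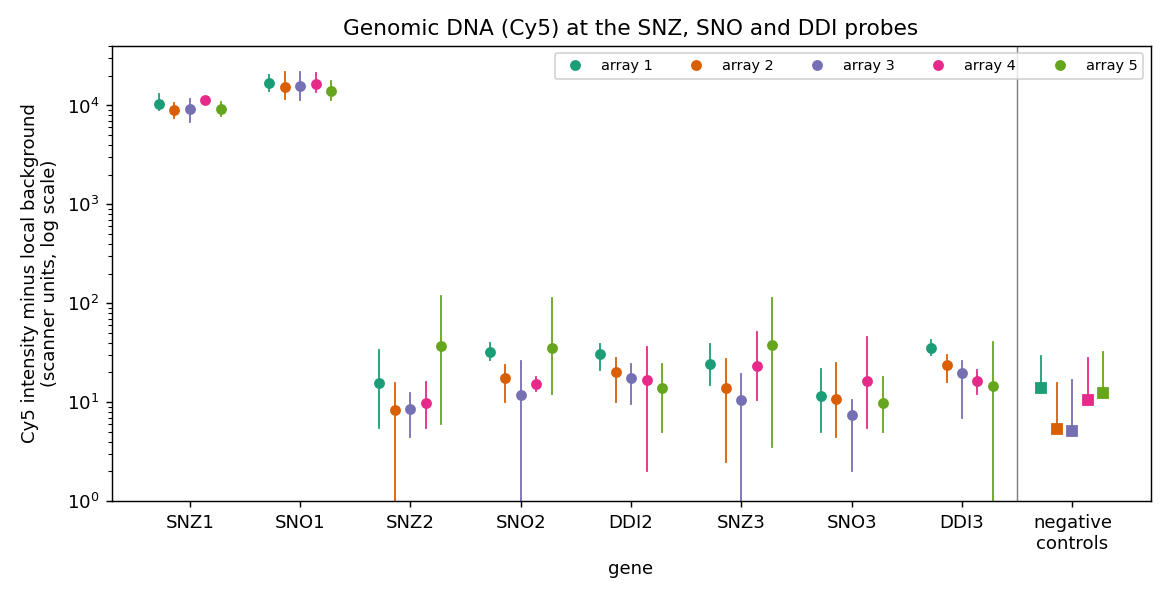
Cy5 intensity minus local background (scanner units, log scale) at the 8 genes on arrays 1 to 5, with the negative controls at the right. Points are means over the spots kept and lines their lowest to highest spot (cut off at 1); squares are means of the negative controls and their lines reach 2 SD above. SNZ1 lies between 9002 and 11318 and SNO1 between 14025 and 16788, while no mean of the other 6 genes exceeds 37.6.

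How many genes counted as lacking genomic DNA signal depended on the limit. With the negative control mean plus 2 SD as the limit, only SNO3 stayed under it on all 5 arrays, while SNO2, DDI2 and DDI3 each passed it on 3 arrays, and SNZ2 and SNZ3 on 1 array, array 5. The 6 SNZ2 spots kept on array 5 ran from 6.0 to 120.0 around a median of 9.5, and 2 of them exceeded the brightest negative control spot kept. With spot medians in place of means SNZ2, SNZ3 and SNO3 stayed under the limit on all arrays. With outlier-flagged control spots included, the same limit lay at 41.0, 27.1, 258.1, 83.3 and 367.3 on arrays 1 to 5. All 6 genes stayed under it, but their own flagged spots were still left out. Because only the controls regained bright spots, this setting cannot decide which genes lack signal. Against 3 SD, all but DDI3 stayed under it on every array, and DDI3 passed it on array 2 with 3.52 SD. When any single spot well above background was enough, 3 genes were without signal: DDI2, SNO3 and DDI3. Once outlier-flagged spots were kept as well, DDI2 alone was without it. Over the spots kept by the outlier filter, no mean exceeded 37.6 scanner units even where a limit was passed. That maximum does not cover the flagged spots, which read up to 1184.

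Spots left out for an outlier flag were unevenly placed. Of the 56 spots of the 8 genes on each array, none was left out on arrays 1 and 2, but 4, 3 and 4 were left out on arrays 3, 4 and 5. All 11 belonged to the 6 genes without Cy5 signal and were marked well above background in Cy5. Their Cy5 intensities ran up to 1184, at SNO3 on array 5. With these spots kept the same 6 genes had no Cy5 signal on any array. That outcome was fixed beforehand, since the marked spots, left out and kept together, were too few per gene and array to meet the rule for signal. Nothing is therefore read from it.

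The neighbours of both subtelomeric blocks gave genomic DNA signal. Neighbours were taken from the measured genes that RefSeq places. On chromosome XIV all 8 measured neighbours were well above background in Cy5 on all 5 arrays. Toward the telomere, DDI2 is followed by COS1, of a family of subtelomeric membrane proteins, at 9856 ± 869 (SD, n = 5). Toward the centromere, SNZ2 is followed by THI12 at 23605 ± 2859 and by AAD14, a putative aryl-alcohol dehydrogenase gene, at 12077 ± 1054 (SD, n = 5). Among the measured genes that RefSeq places, the run without signal was thus DDI2, SNO2 and SNZ2. Its full extent was not tested.

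On chromosome VI the same held for all 12 measured neighbours. DDI3 is followed toward the telomere by COS4 at 36898 ± 3972, and SNZ3 toward the centromere by THI5 at 24873 ± 2978 (SD, n = 5). The next measured neighbour, AAD6, had the lowest Cy5 of the 12, at 3695, 1136, 918, 4316 and 4497 on arrays 1 to 5. It was lowest on arrays 2 and 3, which share a slide. Beyond it, AGP3, an amino acid transporter gene, had 9536 ± 765, and AQY3, an aquaglyceroporin gene, 15572 ± 1265 (SD, n = 5). Among the measured genes, each block thus lay between a COS gene and a THI5-family gene, and its full extent was not tested. COS and THI5-family genes have close copies elsewhere in the genome, and a probe may read those too. Their signal therefore does not by itself place DNA beside the blocks. Beyond the COS genes, Cy5 averaged 34790 at YRF1-6 on chromosome XIV and between 39583 (YFL064C) and 188993 (YFL067W) on chromosome VI. The median over all genes was 12077. Whether these probes, or those of the AAD family, read several copies was not tested, so their signal does not by itself place DNA there either.

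The pair on chromosome XIII stood among neighbours of ordinary signal. Its 12 measured neighbours, 6 on each side, were all above background in Cy5 on all 5 arrays, with means between 5239 at ATP25, which encodes a mitochondrial protein, and 17243 at LAF1. SNZ1 and SNO1 fell inside this range.

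**Figure D2:**
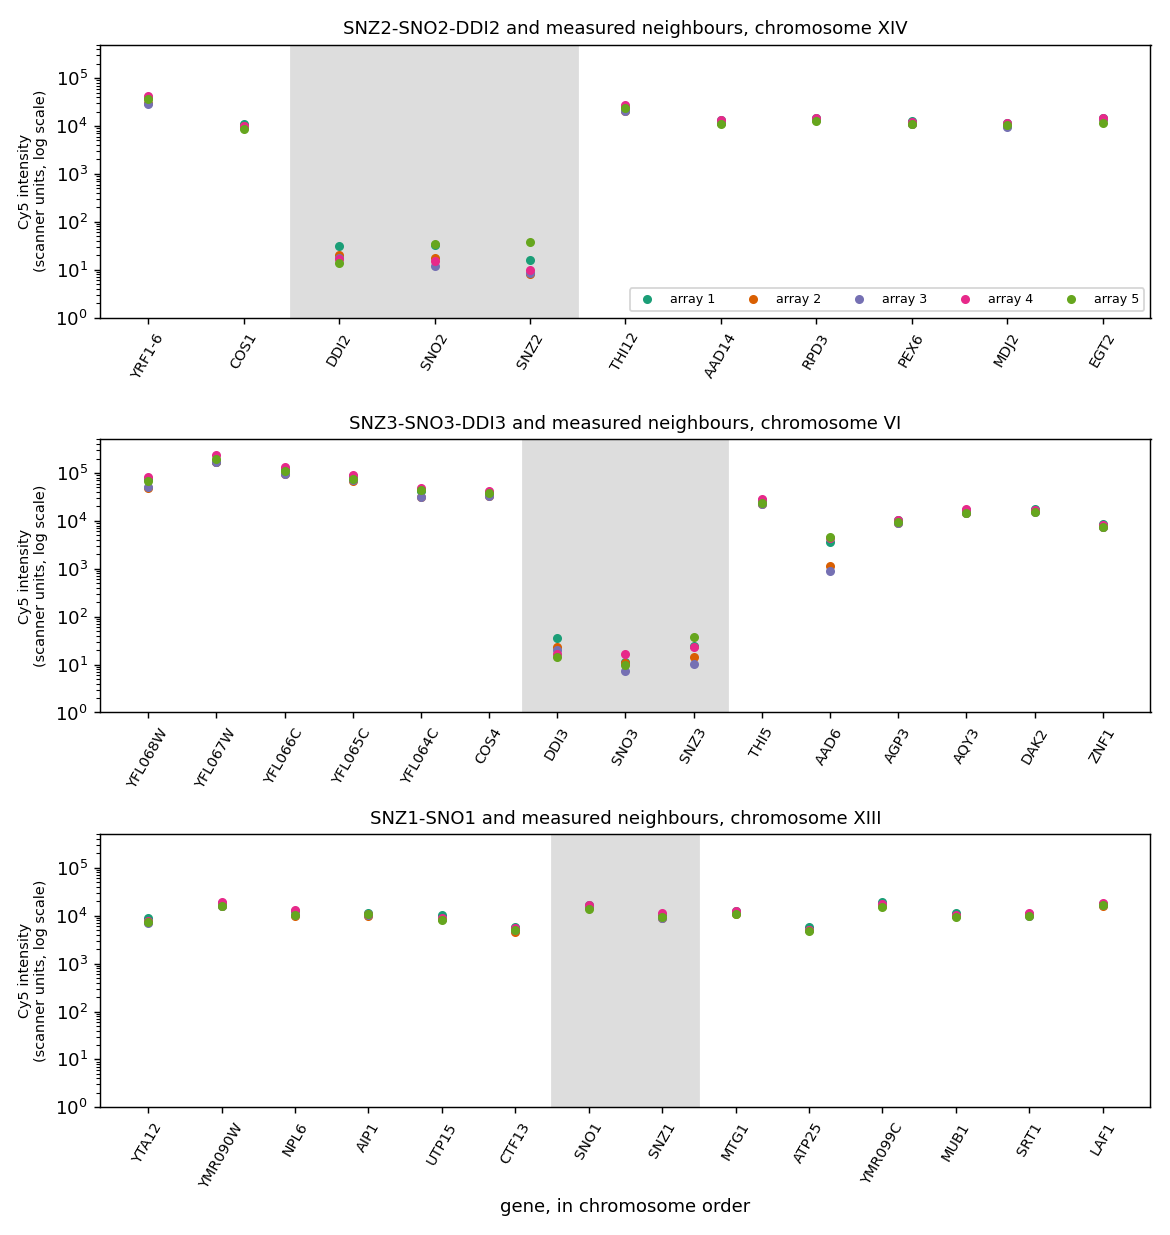
Cy5 intensity (scanner units, log scale) on each of the 5 arrays for the genes of each block (grey band) and their measured neighbours in chromosome order, with both subtelomeric blocks running from the telomere at the left. As means over the spots kept, signal is at most 37.6 at the 6 genes inside the subtelomeric bands and at least 918 at every neighbour and at SNZ1 and SNO1.

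A probe without Cy5 signal may report a missing gene or a sequence that differs from the probe, and these cannot be told apart here. Probe sequences were not used. SNZ2 and SNZ3, SNO2 and SNO3, and DDI2 and DDI3 are near-identical pairs in the reference genome, so a probe for one may also read the other, and the values of a pair may not be independent. This was not tested.

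In the RNA channel SNZ1 was the only one of the 8 genes well above background in Cy3 on all 5 arrays. Its Cy3 intensity was 1360, 809, 823, 897 and 1009 on arrays 1 to 5, a mean of 980 ± 227 (SD, n = 5). SNO1 had 223, 156, 145, 187 and 199, a mean of 182 ± 31.7 (SD, n = 5), and was well above background on arrays 1 to 3. On arrays 4 and 5 only 3 and 2 of its 7 spots carried the mark, although every SNO1 spot exceeded the brightest negative control spot kept on its array. The negative controls read 38.9 ± 5.38, 22.0 ± 4.03, 21.9 ± 3.42, 71.8 ± 14.1 and 74.8 ± 17.3 in Cy3, higher and more spread on arrays 4 and 5. SNO1 stood 34.2, 33.1, 36.2, 8.18 and 7.21 SD above them. In RNA from a whole culture, fewer cells that express a gene and less RNA per cell cannot be told apart.

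Relative to the median gene, and as log2 of Cy3 over Cy5 after quantile normalization, SNZ1 had a level of -0.32, -0.56, -0.53, -0.64 and -0.60 on arrays 1 to 5. The mean was -0.53 ± 0.12 (SD, n = 5), at the 37.6th percentile of all genes. SNO1 had levels of -3.61, -3.55, -3.60, -3.71 and -3.77, a mean of -3.65 ± 0.09 (SD, n = 5), at the 5.20th percentile. The synthase subunit gene was thus near the middle of the transcriptome in rich medium, below the median gene except under loess, which gave 0.19. The glutaminase subunit gene SNO1 was below the median gene under every setting tried, between -3.69 and -1.26.

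Of the 6 genes without genomic DNA signal, SNZ2, SNO2, SNZ3 and SNO3 also had no Cy3 signal on any array. Among all genes 56 (0.895%) had none, and among the 34 genes without Cy5 signal 26 had none. SNZ2 had a Cy3 intensity of 46.6, 26.4, 24.4, 79.2 and 80.6 on arrays 1 to 5, and SNO3 had 35.7, 20.2, 21.2, 61.7 and 60.5. SNO3 lay below the mean of the negative controls on all 5 arrays. SNZ3 had 40.6, 24.4, 24.8, 68.7 and 68.5, between -0.36 and 0.85 SD from that mean. SNO2 reached 56.6 on array 1, 3.30 SD above the negative controls, and stayed within 1.25 SD of them on the other 4 arrays.

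The cyanamide hydratase genes differed from the vitamin B6 genes beside them. DDI2 had a Cy3 intensity of 98.5, 49.5, 47.8, 84.4 and 92.1 on arrays 1 to 5. DDI3 had 98.6, 47.6, 45.9, 77.8 and 88.6. Both were thus 11.1 SD above the negative controls on array 1, and on arrays 2 and 3 DDI2 stood at 6.83 and 7.59 SD and DDI3 at 6.35 and 7.04 SD. On array 4 they stood at 0.89 and 0.42 SD (DDI2 and DDI3), and on array 5 DDI2 stood at 1.001 and DDI3 at 0.80 SD, where the negative controls themselves read higher. By the scanner software's mark, each of the DDI genes had Cy3 signal on arrays 1 and 2 only. On arrays 1 to 3 Cy5 also stood above the negative controls, though less, at 2.16, 2.83 and 2.10 SD for DDI2 and 2.80, 3.52 and 2.52 SD for DDI3. Whether the raised Cy3 background of arrays 4 and 5 had a part in the lower values there was not tested.

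**Figure D3:**
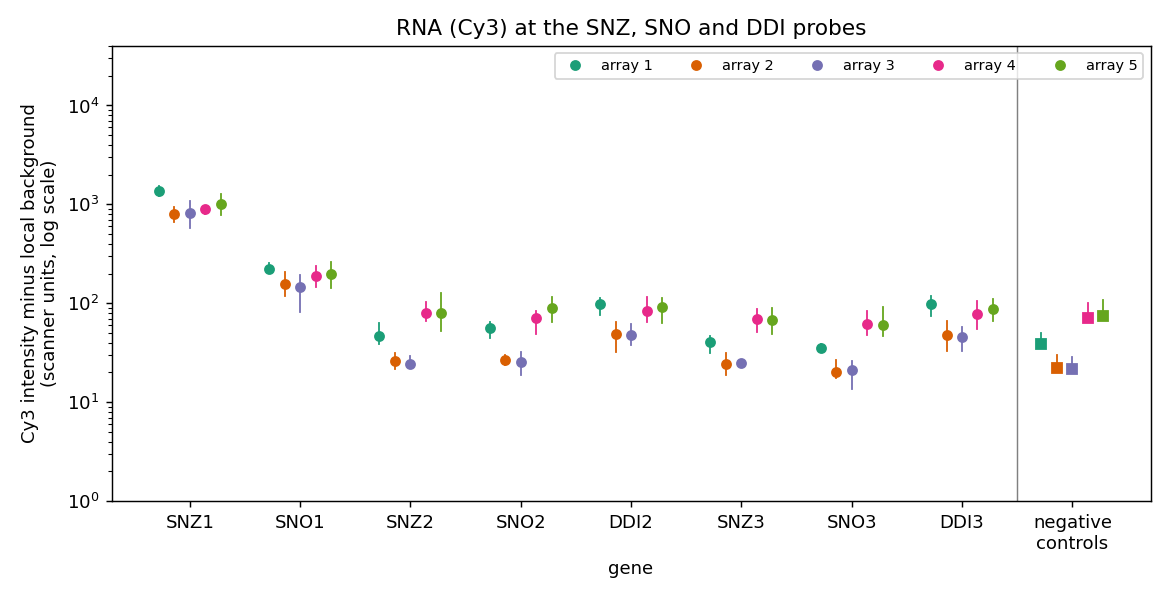
Cy3 intensity minus local background (scanner units, log scale) at the 8 genes on arrays 1 to 5, with the negative controls at the right; points, squares and lines as for Cy5. SNZ1 and SNO1 lie above the negative controls on all arrays, DDI2 and DDI3 on arrays 1 to 3, where they read between 45.9 and 98.6.

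By the scanner software's mark, Cy3 signal without Cy5 signal was seen at other genes too. Of the 34 genes without Cy5 signal, 8 had Cy3 signal on at least 1 array and 5 on at least 2 arrays, DDI2 and DDI3 among them. The other 3 of those 5 were ARR1, a regulator of arsenic resistance genes, and ASP3-2 and ASP3-4, copies of a secreted asparaginase gene. ARR1 averaged 78.5 in Cy3 and 24.8 in Cy5.

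For the 6 genes without Cy5 signal the Cy3 over Cy5 ratio has no measured denominator. Taken at face value, it set their levels between 4.06 and 4.87 log2 units above the median gene, at the 96.6th to 98.4th percentiles, and with another background correction (normexp) the levels of the same 6 genes lay between -2.58 and -2.09. No expression level is therefore given for them.

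**Figure D4:**
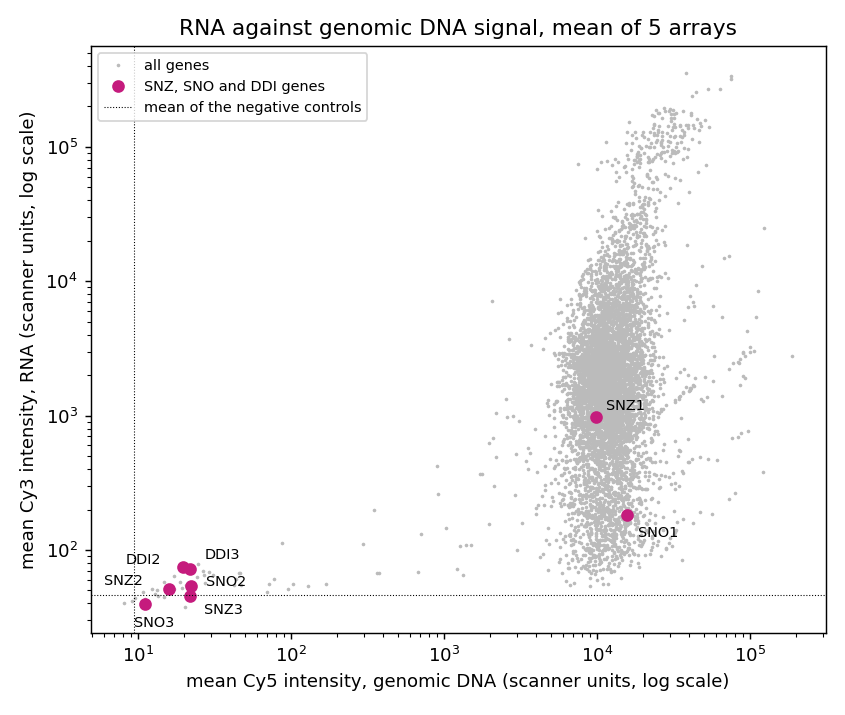
Mean Cy3 against mean Cy5 intensity over 5 arrays (scanner units, log axes) for all 6256 genes (grey) and the 8 genes (coloured), with the means of the negative controls dotted. SNZ1 and SNO1 lie within the main cloud, and the other 6 lie in a small group of genes near the negative controls in both channels.

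Genes of the same pathways were mostly measured in this strain. On a list of 22 genes for vitamin B6 and thiamine metabolism, 21 had Cy5 signal on all 5 arrays and 20 had Cy3 signal on all 5, beside 6213 (99.3%) and 5680 (90.8%) of all genes. The exception in both channels was PHO3, a thiamine-repressed acid phosphatase gene, which had a Cy5 intensity of 12.7, 11.3, 3.92, 10.6 and 9.86 on arrays 1 to 5. PHO3 read 39.3, 24.4, 20.3, 71.1 and 65.2 in Cy3, again near the negative controls on each array. The median Cy5 intensity of the list was 11116, and that of all genes 12077.

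Vitamin B6 genes that do not depend on the SNZ and SNO copies were among the measured ones. PDX3, the pyridoxamine phosphate oxidase that completes the salvage route to pyridoxal 5'-phosphate, had a Cy3 intensity of 3775 ± 396 (SD, n = 5). BUD16, a putative pyridoxal kinase, had 2065 ± 334, and TPN1, the pyridoxine transporter, 1689 ± 245 (SD, n = 5). THI5 and THI12, which border the blocks without signal, had Cy3 intensities of 764 ± 154 and 734 ± 134 (SD, n = 5), and as near-identical copies they may be read by the same probe, which was not tested.

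On a list of 16 DNA damage and alkylation response genes, all 16 had Cy5 signal on all arrays, beside 99.3% of all genes. Cy3 signal on all arrays was seen at 15, beside 90.8% of all genes, and DDR2 had it on 4 arrays. DDI1, which shares only the phrase DNA-damage inducible with DDI2 and DDI3 and encodes a ubiquitin-binding protease, had a Cy3 intensity of 2975 ± 530 (SD, n = 5). MAG1, the alkyladenine glycosylase gene beside it, had 2559 ± 217 (SD, n = 5). On a list of 18 AAD and COS genes, families found beside the subtelomeric blocks, 17 were on the array under their name. All 17 had Cy5 signal on every array, beside 99.3% of all genes.

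The genes most like the 6 without Cy5 signal were found from 10 log2 values each, the unsubtracted Cy3 and Cy5 spot medians of 5 arrays, as the root mean square difference from the mean of the 6. ARR3, an arsenite exporter gene, differed by 0.076 log2 units and VTH2, a sortilin family gene, by 0.077. AI5_ALPHA, VTH1 and YAR047C followed at 0.12, 0.13 and 0.13. The 6 genes themselves differed from their own mean by between 0.099 at SNO2 and 0.30 at SNO3. None of the 5 nearest genes had Cy5 or Cy3 signal on any array, whereas DDI2 and DDI3 had Cy3 signal on 2 arrays each. Nearness was measured in these same intensities, so low signal was part of the choice and nothing is read from it.

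The second scan session was compared with the first as a technical comparison, with the ratio of Cy3 over Cy5 in limma. Of 6256 genes, 92 (1.47%) were higher in the second session and 73 (1.17%) lower at a Benjamini-Hochberg adjusted p of 0.05. SNZ1 had levels of -0.64 and -0.60 in the second session, against -0.32, -0.56 and -0.53 in the first. The difference of -0.15 ± 0.08 (SE) did not pass the test (limma adjusted p = 0.341). SNO1 had -3.71 and -3.77 in the second session, against -3.61, -3.55 and -3.60 in the first. Its difference of -0.15 ± 0.05 (SE) did not pass either (limma adjusted p = 0.19), and with slide as a random block, a fit that called 2242 of the 6256 genes, it did (adjusted p = 0.00697). The direction for SNO1 depended on the processing, since the difference was 0.24 with median centring, 0.20 with loess and 0.035 with normexp.

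Of the 6 genes without Cy5 signal, SNO2, DDI2 and DDI3 passed the same test with a higher ratio in the second session (limma adjusted p = 0.0246, 0.00583 and 0.031). In all 3 the Cy5 denominator was not well above background on any array by the scanner software's mark, so no fold change is given. Of 12 alternatives, 7 called SNO2 (adjusted p between 0.000502 and 0.863), 7 DDI2 (between 0.000196 and 0.531) and 3 DDI3 (between 0.000735 and 0.792). With loess the ratio of both DDI genes was lower in the second session, and neither passed. Without background subtraction, with normexp and with Agilent's processed signals neither DDI gene passed. The Cy3 signal of the DDI genes was lower in the second session once the negative controls were subtracted. DDI2 stood 12.6 and 17.3 scanner units above them in the second session, against 59.6, 27.5 and 25.9 in the first. DDI3 stood 5.96 and 13.9 above them in the second session, against 59.8, 25.6 and 24.1 in the first. Cy5 above the negative controls was lower too, averaging 3.90 for DDI2 and 3.999 for DDI3 in the second session, against 14.5 for DDI2 and 18.2 for DDI3 in the first. Before the negative controls were subtracted, mean Cy3 was instead higher in the second session, at 88.25 against 65.3 for DDI2 and 83.2 against 64.0 for DDI3. Cy3 alone, normalized without subtracting the negative controls, missed the threshold for both DDI genes (limma adjusted p = 0.0646 each). No gene passed with Cy3 alone, beside 1182 at an unadjusted p of 0.05, and slide and session cannot be told apart.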

How the data were processed

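Per the file headers, Agilent Feature Extraction 10.1.1.1 produced the deposited intensity values of each spot and its flags of 0 or 1. The authors also deposited log2 ratios (Cy3 over Cy5), which served as an alternative. From each spot's median intensity its local background median was taken away. Spots flagged as outliers in Cy3 or Cy5 were dropped, and the 7 spots of each gene's 1 probe were averaged. The written design had assumed several probes per gene and had not stated the outlier filter. No gene spot was saturated. A gene had signal on an array where at least 50% of its spots were marked well above background, and the 121 to 145 of 153 negative control spots kept on an array by the same outlier filter gave the other limits. Ratios were quantile normalized and scan sessions compared with limma 3.58.1 in R 4.3.3, which was tested on simulated data. The simulation gave every gene the same spread, so it does not cover the calls at genes near background. Python 3.11.15 was used elsewhere. The number of arrays limits the precision.

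The genes and lists were chosen with earlier results of these data known. Named were the 8 genes, 6 measured neighbours placed by RefSeq on each side (fewer at a chromosome end), members of 3 lists, and the 5 most similar genes. Genes at the limit or with Cy3 but no Cy5 signal were named after their values were seen. RefSeq's table matched 5756 of 6256 systematic names and gave names and gene order only, since no source used here states the array's genome build. No probe or gene sequence was used.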

Additional observations from a re-analysis of the deposited data

Results flagged for a closer look

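SNZ2 read 37.3 in Cy5 on array 5, against 8.29 to 15.6 on the other 4 arrays, a gap large enough to set that array apart. Its 6 spots kept there ran from 6.0 to 120.0 with a median of 9.5, and the spot medians of the other arrays were 8.0 to 14.0. Of 18 sets of 5 values examined, this was the only one so set apart, and chance does so for about 1 in 20. One spot of SNO3 on array 5, left out for an outlier flag, had a Cy5 intensity of 1184, above the brightest of all negative control spots on that array at 884.5, and it was the only one of 11 left-out spots above that limit on its array.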

How the results depend on the processing

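The count of 6 genes without genomic DNA signal became 1 when the negative control mean plus 2 SD was the limit, and 3 when any spot was enough. In alternatives chosen after seeing the data, it became 3 with spot medians against that limit and 1 with any spot and outlier-flag spots kept. With all 153 control spots behind the limit the count was 6, but there the genes' own flagged spots stayed left out. The count of 4 genes without RNA signal became 2 with any spot and outlier-flag spots kept, and was 3 or 4 otherwise. The 165 genes that differed between scan sessions (3 of them SNO2, DDI2 and DDI3) became 1 (0 of the 8 genes) with normexp, 327 (4) with median centring, 8 (0) with loess, 41 (1) with outlier-flag spots kept, 2242 (6) with slide as a random block, 2 (0) with Cy5 alone, 0 (0) with Cy3 alone, and 0 (0) of 5680 genes above background in both channels on every array (977 at an unadjusted p of 0.05). Leaving out 1 array gave between 5 and 174 genes, 5 without array 4 and 18 without array 2, and between 0 and 4 of the 8 genes. The session difference turned to 0.035 with normexp, 0.24 with median centring and 0.20 with loess at SNO1, and with loess to -0.95 at DDI2, -1.02 at DDI3 and -0.11 at SNZ3. The level of SNZ1 turned to 0.19 with loess. Levels without a measured denominator turned to -2.42 at SNZ2, -2.37 at SNO2, -2.09 at DDI2, -2.50 at SNZ3, -2.58 at SNO3 and -2.13 at DDI3 with normexp, and to -0.011 at SNZ3 and -0.14 at SNO3 with loess. The Cy5 of SNO1 relative to the median gene was 0.39 and turned to -0.63 with Agilent's processed signals. The cause was not tested. No paired analysis was possible because the arrays form 1 group.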
